A study of Mus musculus with 12 samples.

Results

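The H3K27me3 peaks of mouse small-intestinal crypts and villi are described here by the genes, gene families and classes of genome that carry them. All peaks of both deposited lists were taken, 7611 from crypts and 13797 from villi, together 21408 of the 169072 peaks in the 8 lists used for this description. Chromatin of crypts and of villi was immunoprecipitated with antibodies against 5 modifications of histone H3 and sequenced beside the input of each compartment, in a study of how the tail of H3 is clipped in the differentiated intestine. The series holds 12 libraries, 1 for each compartment and antibody. Villi were scraped from the intestine with coverslips and crypts were then released with EDTA. The labels give neither strain, age, sex nor the number of mice, and they name no genetic change or treatment. With 1 library per group there was no replicate check, so that shares are set side by side without a test between crypts and villi. The lists give no numbers of reads, so that the sequencing depth behind each of them is unknown. The 95% Wilson intervals given with shares cover counting error only. A peak is a property of the mixed cells of a fraction, and fewer cells with the mark cannot be told apart from less mark in each cell.

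H3K27me3, the trimethylation of lysine 27 of histone H3, is written by the EZH subunits of Polycomb repressive complex 2 (PRC2) and is bound by the chromobox (Cbx) subunits of Polycomb repressive complex 1. In mammals it lies mainly over CpG-rich start sites of genes that are not in use in a cell type, above all developmental regulators, and it can spread from there over whole gene clusters. In the intestine crypts hold the stem cells, Paneth cells and dividing progenitors, and villi carry the absorptive enterocytes, goblet cells and other differentiated cells around a core of connective tissue, vessels and leukocytes.

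The markers fixed for each cell type were read in the H3K4me3 lists, since H3K4me3 marks active start sites. The study reported that H3K4me3 and H3K4me1 signal was strongly lower in villi, which it ascribes to cleavage of the tail. It described the places of H3K4me3 as nearly the same in both compartments. How far the lower signal affected the calls of villi was not tested. All 8 epithelial markers (such as Epcam and Cdh1) and all 8 enterocyte markers carried a promoter H3K4me3 peak in both compartments, as did all 5 markers of proliferation, so that the labelled compartment could not be read from these lists. Of the 6 stem cell markers 6 carried one in crypts and 5 in villi, the exception being Olfm4. Of the 4 Paneth markers 0 carried one in crypts and 1 in villi. Of the 8 leukocyte markers 0 carried one in crypts and 4 in villi, namely Ptprc, Cd3e, Cd3g and Cd8a. Markers of fibroblasts and muscle (1 of 7 in crypts and 2 of 7 in villi), endothelium (0 and 1 of 4) and enteric neurons and glia (2 of 5 in each) were mostly without a peak.

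The sequences below show what kinds of DNA the peaks lie on. They are the RefSeq promoters (250 bases before to 50 after the start) of example genes from the classes described further on. The reference sequence is that of GRCm38, the assembly that mm10 names, with each CpG in capitals and the rest in lower case. Each window lay inside a peak over its whole length in the compartment or compartments named. Pax6 (chr2:105668646-105668945, plus strand) and Otp (chr13:94875386-94875685, plus strand), which encode homeodomain proteins of eye and brain development, lay in peaks of both lists, with 18 and 20 CpG.
Pax6: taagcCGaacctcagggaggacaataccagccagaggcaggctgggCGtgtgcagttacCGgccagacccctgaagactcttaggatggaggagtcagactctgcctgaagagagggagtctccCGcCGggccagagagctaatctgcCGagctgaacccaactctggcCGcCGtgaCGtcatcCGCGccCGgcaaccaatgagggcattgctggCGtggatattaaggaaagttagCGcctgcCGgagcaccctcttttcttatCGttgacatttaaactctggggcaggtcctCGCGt
Otp: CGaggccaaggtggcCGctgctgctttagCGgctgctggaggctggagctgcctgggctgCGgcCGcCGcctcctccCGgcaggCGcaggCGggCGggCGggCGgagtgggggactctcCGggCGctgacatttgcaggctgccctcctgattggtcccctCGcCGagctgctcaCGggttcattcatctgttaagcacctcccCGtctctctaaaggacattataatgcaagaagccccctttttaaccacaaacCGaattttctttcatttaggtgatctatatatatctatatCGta
In villi only, the windows of Foxa2 (chr2:148046920-148047219, minus strand), a forkhead factor of endoderm, Krt75 (chr15:101573855-101574154, minus strand), a hair follicle keratin, and Cd3e (chr9:45009562-45009861, minus strand), a subunit of the T cell receptor complex, were covered, and they held 12, 8 and 8 CpG.
Foxa2: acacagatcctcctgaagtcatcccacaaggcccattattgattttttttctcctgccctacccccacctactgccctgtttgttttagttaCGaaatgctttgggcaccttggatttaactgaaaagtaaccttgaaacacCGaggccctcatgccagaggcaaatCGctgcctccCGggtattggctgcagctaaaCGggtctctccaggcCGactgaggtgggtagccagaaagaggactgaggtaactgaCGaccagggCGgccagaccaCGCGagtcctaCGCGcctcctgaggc
Krt75: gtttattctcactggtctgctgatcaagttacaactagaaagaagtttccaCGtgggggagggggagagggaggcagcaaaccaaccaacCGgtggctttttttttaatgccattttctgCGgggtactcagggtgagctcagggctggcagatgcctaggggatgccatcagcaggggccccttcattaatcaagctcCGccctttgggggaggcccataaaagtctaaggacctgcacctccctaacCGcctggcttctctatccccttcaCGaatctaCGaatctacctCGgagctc
Cd3e: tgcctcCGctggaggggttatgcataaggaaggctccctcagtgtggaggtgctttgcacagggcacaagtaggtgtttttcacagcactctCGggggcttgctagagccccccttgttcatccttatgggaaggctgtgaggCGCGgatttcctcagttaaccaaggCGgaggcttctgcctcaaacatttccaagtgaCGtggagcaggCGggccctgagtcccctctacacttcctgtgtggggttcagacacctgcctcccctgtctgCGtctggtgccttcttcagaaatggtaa
In crypts only, the windows of Meig1 (chr2:3418548-3418847, minus strand), a gene of male germ cells, and Pmp22 (chr11:63131207-63131506, plus strand), which encodes a membrane protein of myelin, were covered, with 12 and 18 CpG.
Meig1: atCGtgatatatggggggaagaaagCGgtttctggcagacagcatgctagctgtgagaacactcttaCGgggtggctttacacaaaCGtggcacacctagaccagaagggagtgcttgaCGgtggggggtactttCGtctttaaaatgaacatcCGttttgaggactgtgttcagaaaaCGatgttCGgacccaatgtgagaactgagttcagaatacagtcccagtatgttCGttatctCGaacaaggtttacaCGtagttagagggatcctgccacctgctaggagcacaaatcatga
Pmp22: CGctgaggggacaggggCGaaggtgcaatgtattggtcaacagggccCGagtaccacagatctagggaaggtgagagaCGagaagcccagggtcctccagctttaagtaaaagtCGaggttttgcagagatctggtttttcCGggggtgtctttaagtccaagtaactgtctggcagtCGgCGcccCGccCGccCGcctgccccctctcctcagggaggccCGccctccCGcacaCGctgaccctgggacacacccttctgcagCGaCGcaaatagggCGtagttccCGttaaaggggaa
For contrast, the centres are shown of the highest-scoring villi-only and crypts-only peaks over 2 kb from a start site. They were a villi-only peak in an intron of Scn8a, a sodium channel gene (chr15:100980768-100981067, plus strand), and a crypts-only peak at Prpf6, a splicing factor gene (chr2:181649693-181649992, plus strand), and each window held 3 CpG.
Scn8a: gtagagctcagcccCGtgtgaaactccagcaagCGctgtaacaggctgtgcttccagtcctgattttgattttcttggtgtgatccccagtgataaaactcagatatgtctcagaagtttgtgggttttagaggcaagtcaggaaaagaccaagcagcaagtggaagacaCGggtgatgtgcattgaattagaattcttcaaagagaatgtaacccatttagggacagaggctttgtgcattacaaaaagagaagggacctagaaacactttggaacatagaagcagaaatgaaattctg
Prpf6: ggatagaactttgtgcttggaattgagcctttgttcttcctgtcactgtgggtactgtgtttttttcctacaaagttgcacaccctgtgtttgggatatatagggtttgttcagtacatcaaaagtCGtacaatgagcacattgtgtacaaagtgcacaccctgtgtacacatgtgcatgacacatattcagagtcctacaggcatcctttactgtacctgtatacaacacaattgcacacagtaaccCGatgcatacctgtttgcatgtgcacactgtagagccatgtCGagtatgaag
Of the 32851 RefSeq promoters in the table used, 29.7% held as many CpG as the Pax6 window or more, and 48.7% as many as those of Krt75 and Cd3e. The median number of CpG per window was 16 in the 2235 promoters covered in both lists, 12 in the 787 covered in villi only, 18 in the 150 covered in crypts only and 6 in the 29679 covered in neither. A window without any CpG was found in 5.43% of all promoters, in 0.268% of those covered in both and in 1.02% of those covered in villi only.

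Peaks were called shared when they met a peak of the other list by at least 1 bp, which left 6878 shared and 733 crypts-only peaks in crypts and 6127 shared and 7670 villi-only peaks in villi. Each peak was given 1 place in the order promoter (within 1 kb of any start site of a protein-coding transcript), exon, intron, other gene type and intergenic. Promoters were the most frequent place of the shared peaks. They held 46.2% (95% Wilson interval 45.0 to 47.4%) of the shared crypts peaks and 50.4% (49.1 to 51.6%) of the shared villi peaks. Crypts-only peaks had a promoter in 22.5% (19.6 to 25.7%) and villi-only peaks in 14.0% (13.2 to 14.7%). Introns held 9.22% of the shared villi peaks and 22.4% of the villi-only peaks, and intergenic sequence 22.5% and 43.0%. The crypts-only peaks had a like share of 43.2% between genes. Counted by bases and not by peaks, promoters made up 9.60% of the sequence under villi-only peaks, introns 33.0% and intergenic sequence 45.0%. These places made up 2.37%, 33.5% and 54.6% of the genome. Of the bases under shared peaks, promoters made up 23.9% in crypts and 20.4% in villi. Exons held 10.6% of the shared villi peaks and 9.41% of the crypts-only peaks.

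**Figure D1:**
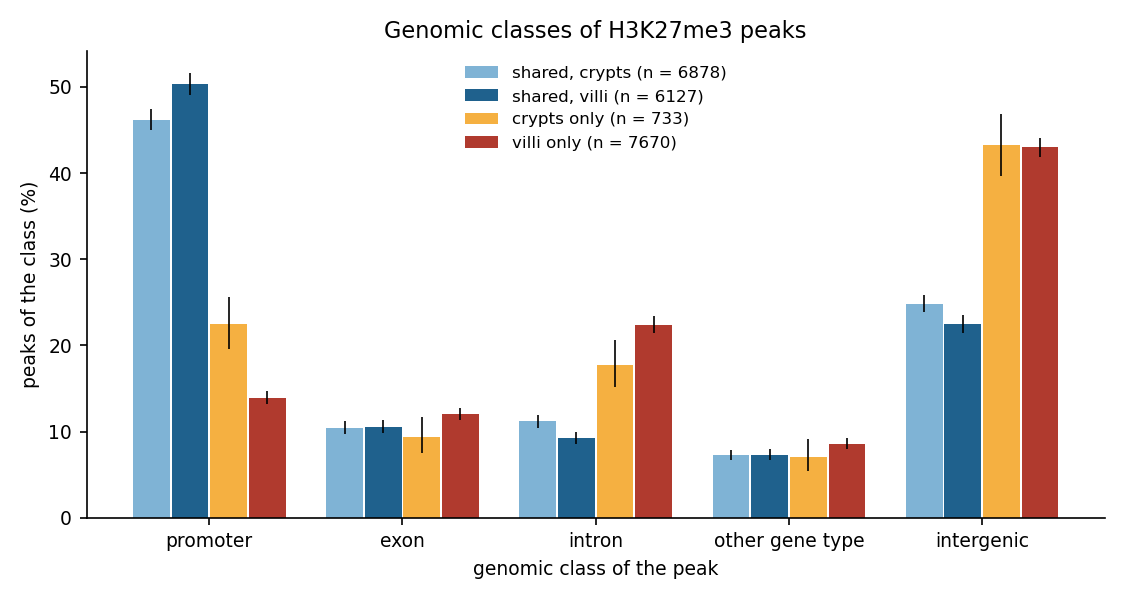
Share of H3K27me3 peaks in each genomic place (percent) for shared, crypts-only and villi-only peaks of the 2 lists. Promoters hold 50.4% of the shared villi peaks, 22.5% of the crypts-only and 14.0% of the villi-only peaks.

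Shared peaks were also the wide and high ones. A width of 5 kb or more was seen in 12.4% of the shared crypts peaks and 25.2% of the shared villi peaks, in 0 of the 733 crypts-only peaks and in 84 of the 7670 villi-only peaks. The score, taken as the authors' −log10 p-value, had a median of 15.7 in shared crypts peaks and 22.3 in shared villi peaks, against 11.6 in crypts-only and 12.2 in villi-only peaks. In villi the share of peaks with a counterpart was 6.18% below 500 bp, 31.8% from 1 to 2 kb and 99.7% at 10 kb or more. In crypts it went from 62.5% below 500 bp to 100% at 5 kb or more.

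The classes were therefore set beside each other among peaks of 1 to 2 kb, an interval chosen after the widths had been seen. A promoter was met by 42.4% (39.7 to 45.1%) of the 1289 shared villi peaks of that width and by 15.4% (14.1 to 16.7%) of the 2762 villi-only peaks. The 225 crypts-only peaks lay between them, with 27.6% (22.1 to 33.7%). An H3K4me3 peak of the same compartment was met by 20.7% of the shared villi peaks, 6.44% of the villi-only peaks and 26.2% (20.9 to 32.3%) of the crypts-only peaks. The observed over expected CpG ratio, which is low where methylated CpG has been lost over evolution and high in CpG islands, had medians of 0.323, 0.218 and 0.286 in that order.

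**Figure D2:**
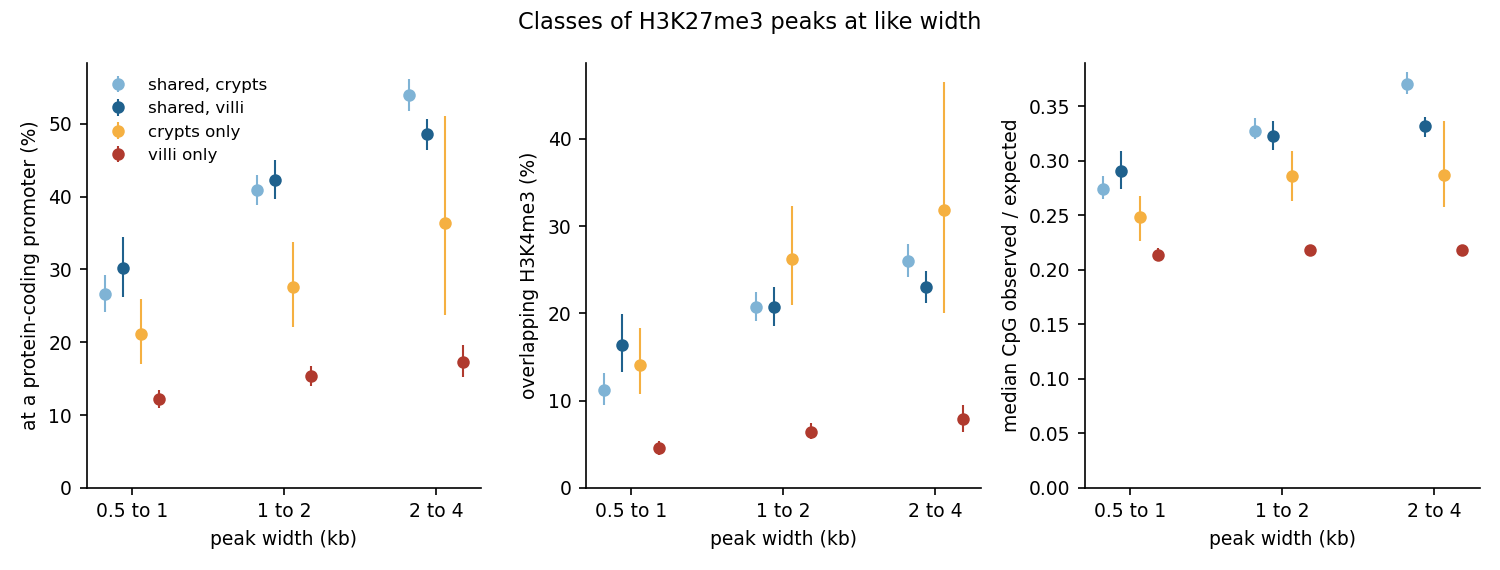
Share of peaks at a promoter and with an H3K4me3 peak (percent, bars are 95% Wilson intervals), and median CpG ratio (bars are 95% intervals from binomial ranks), by class and width of the peak in kb. Among peaks of 1 to 2 kb, 42.4% of the shared villi peaks and 15.4% of the villi-only peaks met a promoter.

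Over all widths the median CpG ratio was 0.347 in shared crypts peaks, 0.334 in shared villi peaks, 0.259 in crypts-only and 0.216 in villi-only peaks, and 0.190 in the genome. The classes were closer in GC content, with medians from 48.3% to 51.2% against 41.7% in the genome. All were poor in repeats, since medians of 11.6% to 14.2% of their bases were soft-masked against 36.4% of the genome.

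The villi list held H3K27me3 sequence beyond that of crypts in both ways, at the edges of shared peaks and in peaks of its own. The part of sequencing depth in this is unknown and was not tested. Edges, widths and joins of peaks were not examined with the villi list reduced. Of the 35.6 Mb under villi peaks, 18.6 Mb (52.3%) were also under a crypts peak, 6.59 Mb (18.5%) were edges of shared peaks and 10.4 Mb (29.2%) lay in villi-only peaks. In crypts 0.947 Mb (4.67%) were edges and 0.713 Mb (3.52%) crypts-only peaks. The edges resembled the villi-only peaks more than the parts found in both lists. The pooled CpG ratio was 0.398 in the bases of both lists, 0.258 in the villi edges and 0.252 in the villi-only peaks. Promoters made up 24.1%, 9.86% and 9.60% of these bases, introns 28.3%, 37.0% and 33.0%, and intergenic sequence 31.8%, 39.9% and 45.0%. Crypts edges (0.375) and crypts-only peaks (0.328) had higher CpG ratios than the villi edges and the villi-only peaks.

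Neighbouring crypts peaks often ran together in villi. There were 883 shared villi peaks that joined 1967 crypts peaks, up to 7 in 1 peak, whereas 316 crypts peaks met several villi peaks, up to 4. In the 4736 pairs of 1 crypts and 1 villi peak, the villi peak was the wider in 79.2% and reached past both ends of the crypts peak in 48.3%. Pairs at exons and introns had a higher median log2 ratio of widths (0.43 and 0.41) than pairs at promoters (0.28). The nearest crypts peak was at most 1 kb away for 934 villi-only peaks, at most 10 kb away for 3628 and over 100 kb away for 1394. For the crypts-only peaks and their nearest villi peak these numbers were 222, 474 and 105.

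At the level of genes, 2860 of the 21938 protein-coding genes carried an H3K27me3 peak at a promoter in crypts (13%) and 3513 in villi (16%). The peak was found in both in 2722 genes (12.4%), in villi only in 791 (3.61%) and in crypts only in 138 (0.629%), and these shares over all genes are the background for the groups described next. With the villi list reduced to its 7611 highest-scoring peaks, the number of crypts peaks, the counts were 394 in villi only and 305 in crypts only. Genes with a peak in both had wide promoter peaks, the median being 2844 bp in crypts and 3990 in villi. The medians were 1391 bp for villi-only and 1099 bp for crypts-only genes. A start site rich in CpG (a ratio of 0.6 and a GC content of 50% in the 500 bp on either side) was found in 57.1% of the genes with a peak in both, 58.0% of the crypts-only genes, 36.4% (33.1 to 39.8%) of the villi-only genes and 42.7% of those with neither. Thus the crypts-only genes were as rich in CpG starts as the genes marked in both, with an interval of 49.6 to 65.9%, and the villi-only genes were poorer.

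**Figure D3:**
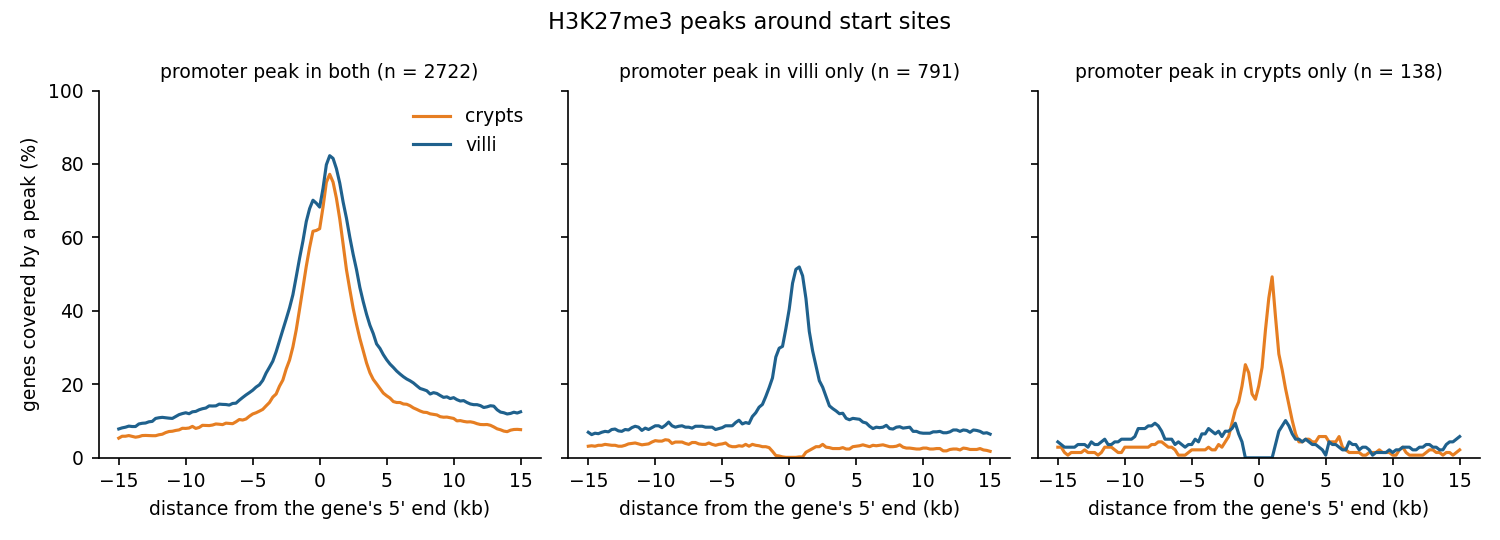
Share of genes covered by an H3K27me3 peak of crypts or of villi (percent) at each distance from the gene's 5′ end (kb), for the 2722 genes with a promoter peak in both, the 791 in villi only and the 138 in crypts only. In genes with a peak in both the cover was highest 750 bp inside the gene, 77.2% in crypts and 82.3% in villi, and at 10000 bp it was 10.7% and 16.4%.

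Hox genes and most of the other listed homeobox genes, which encode developmental transcription factors, were marked in both compartments. All 39 Hox genes, which set the identity of body segments, carried a promoter peak in both compartments, and their bodies held 336 kb under crypts peaks and 355 kb under villi peaks. Such sums over a list add up its genes, so that a base under overlapping genes is counted more than once. Of the 111 other homeobox genes listed 103 had a peak in both, 2 in villi only, 0 in crypts only and 6 in neither. The list does not hold the 34 Rhox genes, a homeobox cluster of the X chromosome, of which 0 had a promoter peak in either compartment. The median share of the gene body under peaks was 87.5% in crypts and 93.7% in villi for the 111 listed genes. Otp had a promoter peak of 13937 bp with a score of 37.2 in crypts and of 14228 bp with a score of 69.5 in villi. Pax6 was covered over 25688 bp in crypts and 25654 bp in villi, 87.2% and 87.1% of its body. Both genes were thus covered over most of their length in each compartment, with little difference in extent. Lmx1b, a factor of limb and brain patterning, had 46948 bp under peaks in crypts and 66910 bp in villi. Onecut3, a cut homeobox factor, had 18993 and 20495 bp.

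Of the listed homeobox genes those without a peak in either were Barx2, Nkx1-2, Isx, Cdx1, Cdx2 and Cdx4, among which Cdx1 and Cdx2 encode the factors that maintain intestinal identity and Isx a factor of the intestinal epithelium. The villi-only members were Mnx1, a motor neuron and pancreas factor, with 0 bp in crypts and 4554 bp in villi (70.7% of its body, score of the promoter peak 21.3), and Dbx2, a spinal cord factor, with 2589 and 4190 bp.

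Other families of developmental factors were marked in part. Of 19 Sox genes 13 had a peak in both, 1 (Sox12) in villi only and 5 in neither, among them Sox9, which is active in crypts. Of 9 Pax genes 7 had a peak in both, and Pax4, a factor of endocrine cells, had one in villi only. Of 44 forkhead genes 21 had a peak in both and 22 in neither. Foxa2 was the only other member, with 0 bp in crypts and 3214 bp in villi (63.1% of its body) at a score of 35.9, and its promoter carried H3K4me3 in both compartments. Of 17 T-box genes 11 and of 20 POU and Zic genes 14 had a peak in both, with the others in neither. Of 6 Gata genes 2 had a peak in both, and Gata4, an endoderm factor of the proximal intestine, had an 856 bp peak in villi only at a score of 10.5, close to the threshold of 10. Of 47 lineage bHLH genes 30 had a peak in both, 0 in villi only and 1, Mesp1, in crypts only, over 535 bp at a score of 10.1. Apart from the Gata genes, whose interval in crypts (9.68 to 70.0%) includes it, these lists had a higher share with a peak in both than the 12.4% of all genes.

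Among the genes of developmental signals, Wnt ligands were marked almost throughout and their receptors in part. Of 19 Wnt ligands 17 had a promoter peak in both, Wnt8b had one in villi only and Wnt8a in neither, with 102 kb of the group under peaks in crypts and 151 kb in villi. Of the 10 Frizzled receptors, to which Wnts bind, 4 had a peak in both and 6 in neither, and all 10 carried promoter H3K4me3 in both compartments. Of 13 secreted Wnt antagonists 9 had a peak in both and Sost, a bone inhibitor of Wnt signals, in villi only, with 2495 bp in crypts and 4465 bp in villi. Sfrp5, the member with the highest score, had a peak of 2175 bp in crypts (score 24.6) and 2572 bp in villi (score 45.0), and its promoter H3K4me3 was called in crypts only.

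The BMP and activin ligands were 1 of 4 lists with more marked promoters in crypts than in villi, with 11 of 28 in both, 1 in villi only and 2 in crypts only. The crypts-only ligands were Bmp8a, with a 1509 bp promoter peak at a score of 24.2, and Bmp7, with a 1396 bp peak at a score of 10.2, both with promoter H3K4me3 in each compartment. Of the 11 BMP antagonists 6 had a peak in both, including Nog (noggin), with 2062 bp in crypts and 2298 bp in villi, and 5 had none. In the Hedgehog pathway 8 of 13 genes had a peak in both, 2 in villi only and 3 in neither. The ligand Shh had 6051 bp in crypts and 6398 bp in villi, and the receptor Ptch1 5386 and 6000 bp, so that both were much alike in the compartments. Hhip, which binds and traps the ligand, had 0 and 2369 bp, and Gli3, a transcription factor of the pathway, 0 and 687 bp. Of 22 Fgf ligands 12 had a peak in both and Fgf18 in villi only, with 1713 bp in crypts and 6532 bp in villi. Of the 9 Notch receptors and ligands, the signals that part absorptive from secretory cells, 1 (Dll3) had a peak in both and 2 in villi only. The ligand Jag2 had 0 and 3133 bp at a score of 26.6, and the receptor Notch3 0 and 3491 bp at a score of 13.1.

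Ion channels, receptors and guidance molecules of neurons were marked more often than all genes (13% in crypts and 16% in villi), apart from GABA and glycine receptors. The intervals of that list, 11.0 to 42.1% in crypts and 13.7 to 46.1% in villi, include the shares of all genes. Of 94 potassium channel genes 52 had a promoter peak in both, 9 in villi only and 1 in crypts only, with 210 kb under peaks in crypts and 340 kb in villi. Kcnip1, which binds voltage-gated channels, had 0 bp in crypts and 1742 bp in villi with a score of 31.5, and Kcnip2 had 0 and 2695 bp with a score of 26.3. Kcne2, a channel subunit of stomach and heart, was the crypts-only member, over 1256 bp at a score of 10.1. Of 40 calcium and sodium channel genes 22 had a peak in both and 2 in villi only, with 106 and 226 kb under peaks. Of 26 glutamate receptors 13 had a peak in both and 4 in villi only, among them Grin2b, a subunit of NMDA receptors, with 0 bp in crypts and 529 bp in villi. Of 53 receptors for monoamines and acetylcholine 24 had a peak in both, 5 in villi only and 2 in crypts only, and of 26 GABA and glycine receptors 6, 1 and 0. Of 71 axon guidance genes 31 had a peak in both, 6 in villi only and 1, the netrin receptor Unc5b, in crypts only, with 4080 bp in crypts and 1478 bp in villi. Slc17a6, which loads glutamate into vesicles, headed the 24 villi-only members among 347 solute carriers, with 4003 bp in crypts and 7762 bp in villi and a score of 34.7, and its promoter was reached by the edge of a shared peak. The other solute carriers had a peak in both in 48, in crypts only in 4 and in neither in 271, and the crypts-only members included Slc30a10, a manganese exporter (2733 and 0 bp), and the serotonin transporter Slc6a4 (909 and 0 bp).

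Keratins, the intermediate filament proteins of epithelia and hair, had the largest villi-only share of the 55 lists examined. The lists of leukocyte markers (5 of 20 genes) and goblet cell genes (3 of 12) followed at 25.0% each. Of 49 keratin genes 5 had a promoter peak in both, 13 (26.5%, against 3.61% of all genes) in villi only, 1 (Krt12, a cornea keratin, 545 bp) in crypts only and 30 in neither. The share with a peak was 12.2% (5.73 to 24.2%) in crypts and 36.7% (24.7 to 50.7%) in villi. These intervals take genes as independent, although many of the covered keratin genes are neighbours on chromosome 15. Under peaks lay 21.1 kb in crypts and 107 kb in villi. Krt75 had 0 bp in crypts and 10795 bp in villi (93.4% of its body) at a score of 21.9, and Krt90 had 3877 and 11595 bp, its whole body in villi. Krt76, an oral keratin, had 668 and 8842 bp, and Krt77 5707 and 10322 bp. The basal keratins of stratified epithelia had no peak in crypts, with 4503 bp in villi on Krt5 and 1884 bp on Krt14. Promoter H3K4me3 was called on 8 of the 49 genes in each compartment. These were not the covered ones just named, since Krt75, Krt90, Krt76, Krt77, Krt5 and Krt14 had none, whereas Krt10 and the simple epithelial keratin Krt18 had H3K4me3 and no H3K27me3 peak. With the villi list reduced to the 7611 highest-scoring peaks, the number of the crypts list, the keratins kept 11 marked promoters in villi (22.4%) beside 6 in crypts.

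**Figure D4:**
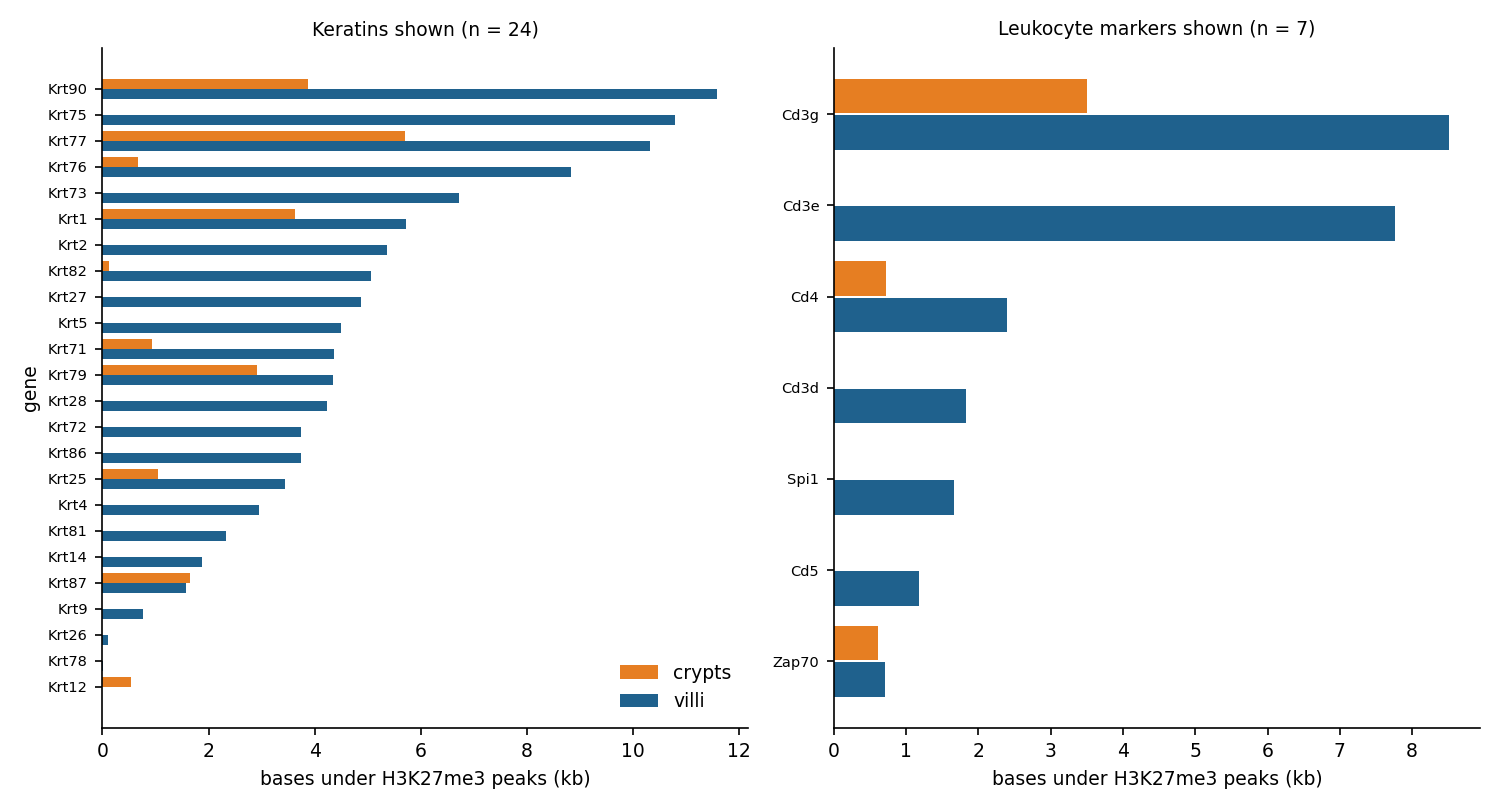
Kilobases under H3K27me3 peaks in crypts and in villi for the keratin and leukocyte genes reported here that have a covered base (gene body and 1 kb before it, 1 library per compartment). Krt75 goes from 0 to 10795 bp and Krt90 from 3877 to 11595 bp.

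Krt75, Krt90, Krt76, Krt77 and Krt5 lie in the type II keratin cluster, which held more villi-only peaks than any other stretch of its size. When chromosomes were cut into windows of 500 kb, the 1990 windows with a villi-only peak held a median of 2. The window chr15:101500001-102000000, which covers that cluster, held 55 villi-only, 17 shared and 0 crypts-only peaks, with 66.2 kb under peaks in crypts and 237 kb in villi. The next windows held 35 villi-only peaks (chr17:29500001-30000000, with Mdga1, a neuronal adhesion gene) and 32 (chr4:135000001-135500000, with Runx3, a factor of T cells and neurons, and the chloride channel gene Clic4). Then came windows of 30 each around Skap1 (chr11:96500001-97000000), around Fer1l6 (chr15:58500001-59000000) and over an olfactory receptor cluster (chr11:58500001-59000000). Crypts-only peaks never exceeded 7 in a window.

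Other adhesion and matrix families had smaller villi-only shares. Of 44 collagens 18 had a peak in both, 5 in villi only and 1 in crypts only. Col4a1 and Col4a2, which share a promoter between them and encode the main chains of basement membranes, had 0 bp in crypts and a villi peak of 2601 bp at a score of 20.3, and the pair Col4a3 and Col4a4 had one at a score of 11.7. Col24a1 had 2836 bp in crypts and 0 bp in villi. Of 35 cadherins and unclustered protocadherins 15 had a peak in both, 2 in villi only and 18 in neither, among the last Cdh1 (E-cadherin) and Cdh17, the adhesion genes of the intestinal epithelium. Of 57 clustered protocadherins 4 had a promoter peak in both and 3 in villi only, although their bodies, which overlap so that bases are counted more than once, held 120 kb under peaks in crypts and 191 kb in villi. Of 23 claudins, the proteins of tight junctions, 4 had a peak in both and 1, Cldn4, in crypts only, over 1125 bp at a score of 14.0, with H3K4me3 in both compartments.

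Few genes of enterocyte absorption, the cell cycle or the ribosome had a promoter peak. Of 35 genes of enterocyte absorption 2 had a peak in both (5.71%, 1.58 to 18.6%, an interval that includes the 13% of all genes in crypts) and 33 in neither, and all 35 carried promoter H3K4me3 in both compartments. The marked ones were Cybrd1, a duodenal iron reductase (1222 bp in crypts and 1666 bp in villi), and Ada, adenosine deaminase (1577 and 1673 bp). Of 36 genes of the cell cycle and DNA replication 0 had a peak in either compartment, with an upper Wilson limit of 9.64%, and all 36 carried promoter H3K4me3 in both. Of 72 ribosomal protein genes 1 had one in both. Among 7 Cdk inhibitors, Cdkn2a had 20326 bp under peaks in crypts (score 52.7) and 18708 bp in villi (score 45.0), Cdkn1c had 2001 and 2481 bp, and the other 5 had no promoter peak. Of 23 intestinal transcription factors 3 had a peak in both, among them Pdx1 and Onecut2, and Foxa2 and Gata4 had one in villi only.

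The separate intestinal lineages were marked to different degrees. Of 18 stem cell genes 3 had a peak in both, and each was covered more widely in villi, as were 3572 of the 4335 genes with a covered base. The share with a peak was 16.7% (5.84 to 39.2%) in crypts and 27.8% (12.5 to 50.9%) in villi, intervals that include the 13% and 16% of all genes. Lgr5, the receptor that marks crypt base stem cells, had 8915 bp in crypts and 24967 bp in villi, with scores of its promoter peak of 11.3 and 26.9. Ascl2, a transcription factor of these cells, had 1414 and 3044 bp, and Msi1, an RNA-binding protein, 812 and 2613 bp. Tnfrsf19 (976 bp, score 13.9) and Slc12a2, an ion cotransporter (score 11.1), had a promoter peak in villi only, and the other 13 had none. Of 12 goblet cell genes Atoh1, the factor that specifies secretory cells, and Muc2, the main mucin, had a peak in both, and 3 had one in villi only. Among these Zg16 had 5945 bp in crypts and 16601 bp in villi, and Spink4 had 0 and 1517 bp, with promoter H3K4me3 called in crypts only. Of 13 Paneth cell genes 1 (Reg4, which enteroendocrine cells also use) had a peak in villi only, with 2468 and 10487 bp. A peak in both was found on 13 of 23 enteroendocrine genes, among them Neurog3 (2641 and 2674 bp), which starts that lineage, and on 6 of 14 tuft cell genes. In villi the shares with a peak were 60.9% (40.8 to 77.8%) of the enteroendocrine, 42.9% (21.4 to 67.4%) of the tuft and 41.7% (19.3 to 68.0%) of the goblet cell genes, with intervals that overlap.

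Among genes of other tissues, the leukocyte list was the one without any promoter peak in crypts and with several in villi. Of its 20 genes 0 had a promoter peak in crypts (upper Wilson limit 16.1%) and 5 had one in villi (25.0%, 11.2 to 46.9%). Both intervals include the shares of all genes, 13% in crypts and 16% in villi. Under peaks lay 4.84 kb in crypts and 27.1 kb in villi. Cd3e had 0 bp in crypts and 7761 bp in villi (65.3% of its body) at a score of 13.9, Cd3g 3506 and 8511 bp at 13.1, and Cd3d 0 and 1834 bp at 10.2. These 3 neighbouring genes encode CD3 chains of T cells, and Cd5, another T cell gene, had 0 and 1183 bp. Over the same list promoter H3K4me3 was called on 2 genes in crypts and 6 in villi. Cd3e and Cd3g therefore carried both marks in villi and neither at the promoter in crypts, whereas Ptprc and Cd8a had H3K4me3 in villi only and an H3K27me3 peak in neither. Leukocyte markers thus moved with this result, and their part in it was not tested. All 5 scores lay near the threshold, so that with the villi list reduced to the number of crypts peaks 1 of the 20 promoters was left, and 0 in the upper 50% of the scores.

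The other tissue lists had peaks in both compartments, with as many or up to 2 more marked promoters in villi. Of 15 fibroblast and muscle genes 8 had a peak in both and 1 (Pdgfrb, a receptor of pericytes) in villi only. Of 12 endothelial genes 6 had one in both and Esam in villi only, and of 14 genes of enteric neurons and glia 8 had one in both, Snap25 in villi only and Elavl4 in crypts only. Of 16 liver and pancreas genes 4 had one in both, and Ins1 and Ins2, which encode insulin, in villi only at scores of 10.6 and 11.4. Of 16 stomach and oesophagus genes 3 had one in both and 2 in villi only.

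**Figure D5:**
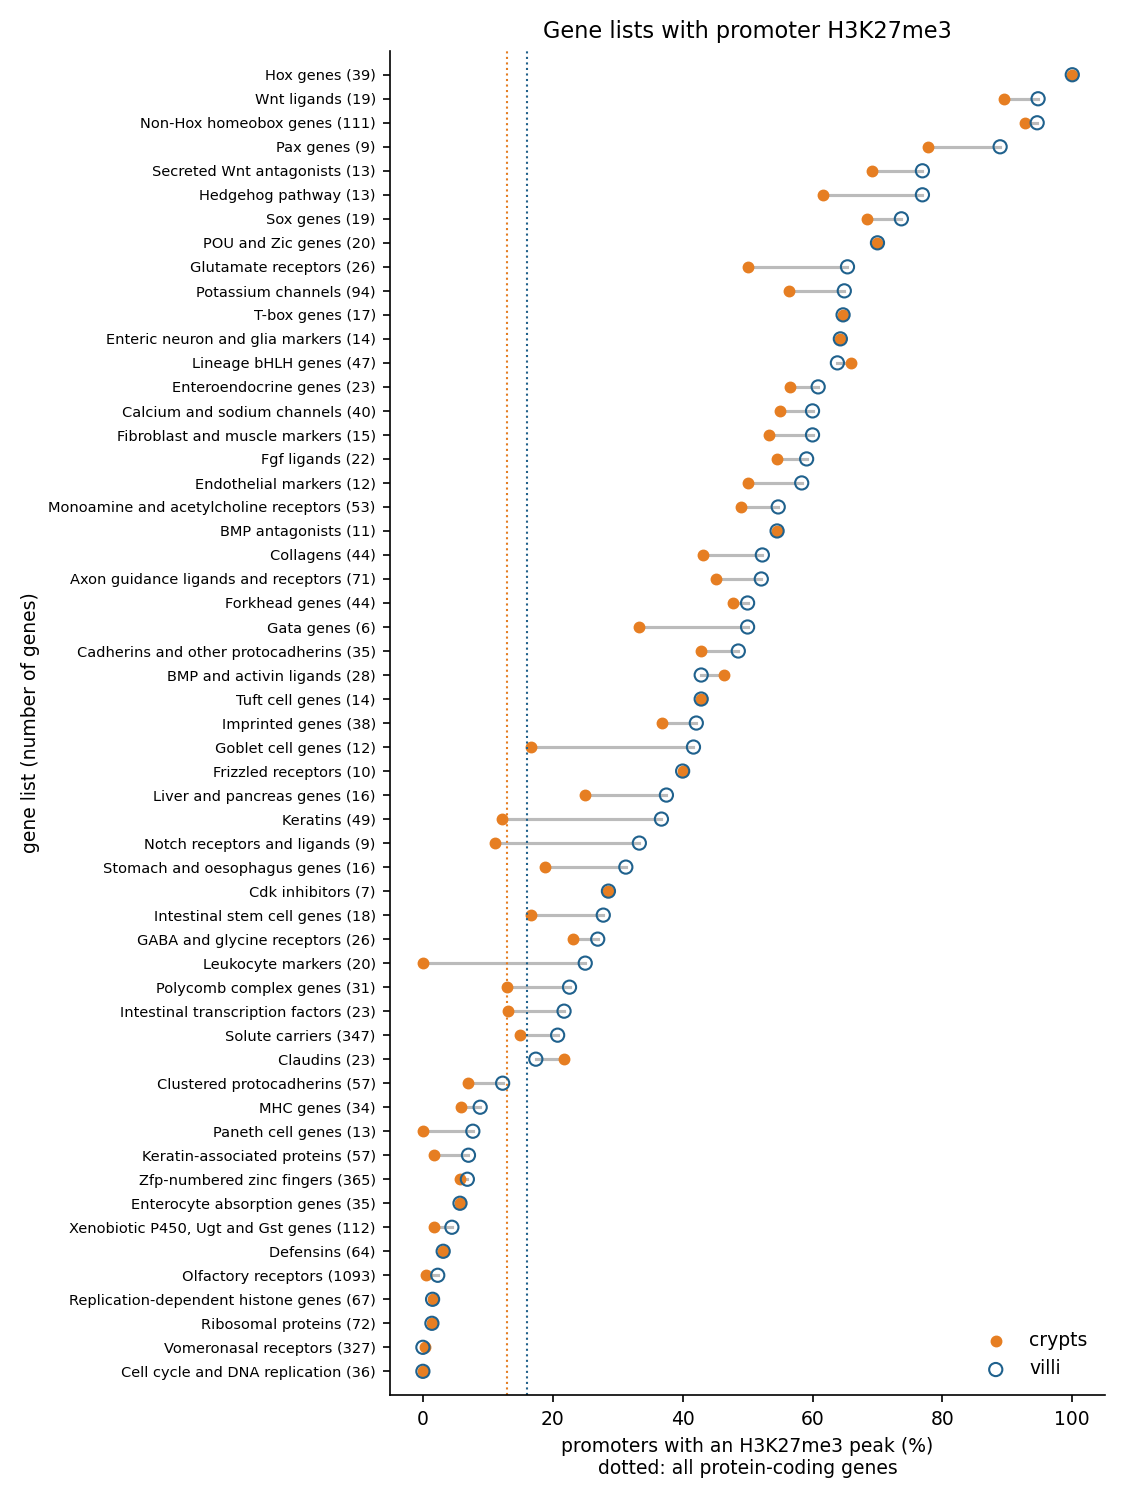
Share of the genes of each of the 55 lists with a promoter H3K27me3 peak in crypts (filled) and in villi (open), in percent, with the number of genes in parentheses and dotted lines at the shares of all genes, 13% and 16%. Hox genes stand at 100% in both, keratins at 12.2% and 36.7%, and genes of the cell cycle at 0 in both.

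Large clustered families of sensory and immune genes were nearly free of H3K27me3 peaks. Of 1093 olfactory receptors 5 had a promoter peak in both and 20 in villi only, a share of 0.457% in crypts and 2.29% in villi against 13% and 16% of all genes. With the villi list reduced to the number of crypts peaks the share in villi was 0.732%. Of 327 vomeronasal receptors 1 had a peak, in crypts, of 64 defensins 2, of 67 replication-dependent histone genes 1 and of 57 keratin-associated proteins 1 in both and 3 in villi only. The aligner kept 1 position for each read, so the peaks of such near-identical copies are uncertain. Of 365 Zfp-numbered zinc finger genes 19 had a peak in both, 6 in villi only and 2 in crypts only, although 309 of them carried promoter H3K4me3 in crypts. When all genes were grouped by the stem of their symbol, 103 of 370 families with 8 or more genes, together 1393 genes, had no promoter peak in either list, led by Vps (35 genes of vesicle sorting), Rhox (34 homeobox genes of the X chromosome), Scgb (34 secretoglobins) and Mrps (29 mitochondrial ribosomal proteins). Chromosome X as a whole was poor in peaks, with 0.251 per Mb in crypts and 0.450 in villi, and chromosome 11 was the richest with 5.39 and 10.6. Of 112 P450, Ugt and Gst genes 2 had a peak in both and 3 in villi only.

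Genes of the Polycomb system carried the mark about as often as all genes, 12.9% (5.13 to 28.9%) in crypts against 13% and 22.6% (11.4 to 39.8%) in villi against 16%. Of 31 such genes Cbx7, Cbx2, Bmi1 and Cbx8, subunits of Polycomb repressive complex 1, had a promoter peak in both. Bmi1 had 3383 bp in crypts and 3202 bp in villi, and Cbx2 738 and 692 bp. Phf19, an accessory subunit of PRC2 (929 bp, score 18.6), Pcgf5 and Cbx6 had one in villi only. The PRC2 core genes Ezh1, Ezh2, Eed and Suz12 had none. Promoter H3K4me3 was called on 30 of the 31 in each compartment.

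The villi-only promoters with the highest scores belonged to different kinds of genes. Actr5 (47.5), Btbd17 (41.1) and Dctn3 (40.5) had the highest scores, and their promoters were reached by an edge of a shared peak. Mroh5 had a 5045 bp peak (chr15:73837952-73842996, score 38.4) and no crypts peak within 89714 bp. Tle2, a corepressor of Wnt targets, had 78 bp under peaks in crypts and 10037 bp in villi (score 35.7), where the edge of a shared peak reached the promoter, and its promoter H3K4me3 was called in villi only. Fbxl2, a subunit of ubiquitin ligases, had 574 and 5769 bp (score 34.8). Elavl2, a neuronal RNA-binding protein, had a 5562 bp peak (chr4:91370724-91376285, score 32.6) and likewise promoter H3K4me3 in villi only, and Plau, the urokinase gene, had 0 and 2425 bp (score 31.1). Not all villi-only promoters were new peaks, since 739 of the 791 genes carried only peaks without a counterpart and the rest were reached by an edge of a shared peak, as in Tle2, Actr5, Btbd17, Dctn3, Sost, Wnt8b, Slc17a6, Dbx2, Sox12, Pax4 and Krt90. Of the 138 crypts-only genes 118 carried only peaks without a counterpart.

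Crypts-only peaks at promoters lay mostly where H3K4me3 was called too. Of the 165 such peaks 61.2% (53.6 to 68.3%) met an H3K4me3 peak of crypts, and the same share met one of villi, against 31.0% (28.3 to 33.9%) of the 1070 villi-only promoter peaks in villi. In genes, H3K4me3 in crypts was found on 81.2% of the 138 crypts-only promoters, 48.8% of the promoters marked in both, 44.0% of the villi-only and 59.2% of the unmarked ones. The highest crypts-only peak was that of Mfhas1 (chr8:35588297-35590555, 2259 bp, score 25.9), 174216 bp from the nearest villi peak. Pmp22 had 4197 bp in crypts (chr11:63130944-63135140, score 21.2) and 0 in villi, C530008M17Rik 3570 and 0 bp, and Ppp1r18, a phosphatase subunit gene, 2955 and 0 bp. The neutrophil chemokine gene Cxcl2 had 1718 bp, 56.0% of its body, and 0 in villi, and the histamine receptor gene Hrh1 2572 and 0 bp. Promoter H3K4me3 accompanied Mfhas1, C530008M17Rik, Pmp22 and Ppp1r18 in both compartments, and was absent in both from Col24a1 and from the peak of Necab2 (1217 bp, score 24.0), a neuronal calcium-binding protein. Unc5b was reached by the edge of a shared peak, and so were Ppm1j and Blvrb, which had the highest scores among crypts-only promoters (35.6 and 28.0).

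Promoter H3K4me3 was also compared between the compartments, with the limit that the study reported a lower signal of this mark in villi. Of the 791 villi-only genes 20 had H3K4me3 in crypts only, among them Notch3 and Spink4, and 18 had it in villi only. Of the 138 crypts-only genes 3 had it in crypts only and 2 in villi only. Of the 2722 genes with H3K27me3 in both, 94 had H3K4me3 in crypts only and 138 in villi only. Of the 18287 genes with H3K27me3 in neither, 115 had it in crypts only and 119 in villi only.

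Over all peaks, H3K4me1 and H3K4me3 of the same compartment met more of the shared peaks than of the villi-only or crypts-only peaks. Among crypts peaks of 1 to 2 kb the order was the reverse, with intervals that overlap. An H3K4me1 peak, a mark of enhancers and of the flanks of promoters, met 43.5% of the shared villi peaks and 10.4% of the villi-only peaks, and 35.0% of the shared and 25.5% of the crypts-only peaks of crypts. H3K4me3 met 25.3% (24.3 to 26.4%) and 5.58% (5.09 to 6.12%) in villi and 22.5% and 17.7% in crypts. Among peaks of 1 to 2 kb, H3K4me1 met 28.3% (26.5 to 30.3%) of the shared crypts and 35.1% (29.2 to 41.6%) of the crypts-only peaks. H3K4me3 met 20.7% (19.1 to 22.5%) and 26.2% (20.9 to 32.3%). From 2 to 4 kb, with 44 crypts-only peaks, the shares were 40.3% and 40.9% for H3K4me1 and 26.0% and 31.8% for H3K4me3. H3K9me3, the mark of constitutive heterochromatin, met fewer than 1% in every class, with 0.637% of the shared and 0.313% of the villi-only peaks of villi, and 0.625% of the shared and 0.819% of the crypts-only peaks of crypts. None of these 3 marks was met by 54.3% of the shared and 88.7% of the villi-only peaks of villi, and by 62.4% of the shared and 72.6% of the crypts-only peaks of crypts.

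Over whole gene bodies with 1 kb before them, 4335 genes had a covered base, of which 3572 had more in villi, 638 more in crypts and 125 the same. A difference of over 10 kb was found in 117 genes toward villi and in 0 toward crypts. The largest values, those of Gm20388 (122535 bp in crypts and 232511 bp in villi) and Fgfr2 (47795 and 95811 bp), came from annotated spans of 4.43 and 2.96 Mb with 71 and 29 other coding genes inside, so that they do not belong to 1 gene. Next were Mdga1, Skap1, an adaptor of T cells, and Scn8a. Mdga1 had 34685 bp in crypts and 81994 bp in villi, Skap1 24653 and 69185 bp, and Scn8a 19260 and 60488 bp. Skap1 also had promoter H3K4me3 in villi only, as the T cell genes Cd3e and Cd3g did. Megf11, which spaces retinal neurons, had 25768 and 58687 bp, Cdh22, a cadherin of brain, 14671 and 42001 bp, and the neurexin gene Nrxn2 27398 and 54478 bp. These 6 genes carried a promoter peak in both compartments. Igfn1 had 4721 and 30018 bp and Pear1 17312 and 42428 bp. Pebp4 had 0 and 24413 bp in 17 separate villi peaks, and Dnah14, a dynein of cilia, 1431 and 23895 bp. Skap1 held 26 villi-only peaks, the highest number for any gene body that does not span other genes over megabases. The share of the body under peaks was over 50% in 539 genes in crypts and 761 in villi, with 521 in both.

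Some microRNA genes lay under peaks as well. Of the 1072 microRNA genes with a hairpin or mature form listed by RefSeq, 45 met a peak of both lists, 25 of villi only and 2 of crypts only. This was 4.38% in crypts and 6.53% in villi, while the peaks covered 0.743% and 1.31% of the genome. The mature forms below belong to the marked hairpins and are shown by family or locus, with the seed (bases 2 to 8), which pairs with targets, in capitals. miR-10a and miR-10b share a seed, as do miR-196a and miR-196b, and miR-34b, miR-449a and miR-449c. miR-9-5p, a neuronal microRNA, has 3 hairpins on chromosomes 3, 13 and 7, each under peaks of both lists. The widths of these peaks were 26850 bp in crypts and 30728 bp in villi for Mir9-1, 11262 and 30297 bp for Mir9-2, and 21527 and 30219 bp for Mir9-3.
miR-9-5p: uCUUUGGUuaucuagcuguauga
The miR-10 and miR-196 families lie in the Hox clusters. The peak over Mir10a was 2586 bp in crypts and 8031 bp in villi and that over Mir10b 1455 and 5821 bp. The peak around Mir196a-2 measured 72697 bp in crypts and 110743 in villi, whereas that around Mir196b was wider in crypts, with 56472 and 53982 bp.
miR-10a-5p: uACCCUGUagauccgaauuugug
miR-10b-5p: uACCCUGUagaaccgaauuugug
miR-196a-5p: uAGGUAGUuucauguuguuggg
miR-196b-5p: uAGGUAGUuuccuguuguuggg
The miR-34 and miR-449 families, known from multiciliated cells, lay under peaks of both lists on different chromosomes, 3924 bp in crypts and 4897 bp in villi over Mir34b and 6190 and 6947 bp over Mir449a and Mir449c.
miR-34b-5p: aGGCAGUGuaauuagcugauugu
miR-449a-5p: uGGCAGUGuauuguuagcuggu
miR-449c-5p: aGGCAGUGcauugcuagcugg
In villi only, a 1557 bp peak with a score of 13.1 covered the first hairpins of the miR-290 cluster, which is known from embryonic stem cells, and a 900 bp peak with a score of 15.7 covered Mir208b, which lies in a myosin gene of the heart.
miR-290a-3p: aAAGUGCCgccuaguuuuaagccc
miR-291a-3p: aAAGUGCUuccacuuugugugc
miR-208b-3p: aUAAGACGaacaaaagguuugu
Among other transcripts without a protein, antisense genes were marked in 9.60% in crypts and 11.9% in villi, long intergenic genes in 4.75% and 6.70%, and processed pseudogenes in 0.905% and 1.85%. Among those more than 2 kb from the start sites of protein-coding genes the shares were 4.13% and 6.09% for antisense and 3.55% and 5.37% for long intergenic genes.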

How the data were processed

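ChIP-Rx libraries of mouse small-intestinal crypts and villi were analysed, 1 per compartment and antibody. Bowtie was used by the authors to map the paired reads against mm10 and against dm6, the genome of the fly chromatin spiked in, with 1 position kept per read. PCR duplicates were removed and MACS2 called the peaks of each library, with no pooling stated. The submitters' processing notes name Bowtie 1.1.2, MACS2 2.1.1 and deepTools 3.1. By their names the lists were called against the input of the same compartment, and the amounts of chromatin given in the labels and in the methods differ. The deposited files hold positions and a score without a header, which was read as a −log10 p-value because the authors' threshold matches the lowest value, 10. A q-value of that scale cannot be told apart. Spike-in scaling does not enter the score, which changes with depth and takes few distinct values (910 among 7611 crypts peaks and 1276 among 13797 villi peaks), so that scores of the lists are not comparable in size. They are printed to show how a peak stands within its own list.

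Overlaps, widths and distances were computed in Python 3.11.15 with NumPy 2.4.6 and pandas 2.3.3, intervals with SciPy 1.17.1 and statsmodels 0.14.6, and figures with Matplotlib 3.10.9. Genes came from GENCODE M21 and sequences from the RefSeq copy of GRCm38. The overlap code was tested on simulated data and found the 5000 overlaps planted among 12000 intervals and 0 others. A gene's cover is the number of bases of its body and the 1 kb before it under peaks. A villi-only or crypts-only gene is one whose promoters, taken within 1 kb of its start sites, meet a peak of that list alone. The members of the lists and the comparisons were chosen with earlier results of these data known. Of each list the text names up to 6 members per class, those with the highest score of the promoter peak. It also names genes at the 15 highest-scoring and the 10 widest peaks of each class, the 15 highest villi-only and crypts-only promoters and the 15 largest differences in cover in each direction. Krt5, Krt14, Shh, Ascl2, Neurog3, the Cdx genes, the genes of the windows and the microRNAs were named after their values were seen. Values of some genes are not reported here. The H3K9me2 lists, the inputs and the scaled signal were not used here. No test was made between single libraries. The alternatives were the upper 50% of each list by score, the villi list reduced to the number of crypts peaks, a reciprocal overlap of 50%, joining of peaks less than 1 kb from each other, autosomes only, promoters of 5 kb either side, a gap of 1 kb for peaks without a counterpart and, chosen after seeing the data, peaks of 1 to 2 kb.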

Additional observations from a re-analysis of the deposited data

How the results depend on the processing

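In every setting run for them, shared villi peaks met promoters and H3K4me3 more often than villi-only peaks and had the higher CpG ratio. Of 77 values under an alternative 29 stayed within their interval or within 1.5 times the count and 48 moved, and all 14 with autosomes alone and all 4 with a gap of 1 kb stayed.

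In the upper 50% of each list by score, 92.7% of crypts peaks and 48.4% of villi peaks were shared. Promoters were then met by 64.4% of shared villi, 29.1% of villi-only and 43.3% of crypts-only peaks, H3K4me3 by 33.4%, 13.2% and 35.4%, and the median CpG ratios were 0.375, 0.250 and 0.339. With the villi list reduced to the number of crypts peaks, 79.7% of crypts and 68.7% of villi peaks were shared and 89.3% of the crypts promoters were kept, with 394 villi-only and 305 crypts-only genes. Promoters were met by 54.4% of shared villi and 20.4% of villi-only peaks, H3K4me3 by 27.1% and 9.49%, with CpG ratios of 0.345 and 0.226. At a reciprocal overlap of 50%, 55.7% of crypts and 30.7% of villi peaks were shared. Promoters were met by 55.8% of shared villi, 18.7% of villi-only and 29.5% of crypts-only peaks, H3K4me3 by 28.6%, 8.01% and 14.8%, and the CpG ratios were 0.359, 0.226 and 0.278. With peaks under 1 kb apart merged, 89.6% and 45.5% were shared, promoters were met by 57.4% of shared villi and 14.8% of villi-only peaks, and H3K4me3 by 30.4% and 6.23%. With promoters of 5 kb either side the shares were 60.8% of shared villi, 30.4% of villi-only and 34.7% of crypts-only peaks. Among peaks of 1 to 2 kb promoters were met by 42.4%, 15.4% and 27.6%, and H3K4me3 by 20.7%, 6.44% and 26.2%. Crypts-only peaks thus met H3K4me3 more often than shared villi peaks in the upper 50% and among peaks of 1 to 2 kb, and less often in the other settings. The causes were not tested.

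Of the 55 gene lists 38 had more marked promoters in villi, 13 as many and 4 more in crypts. These were 43, 10 and 2 in the upper 50% by score, 34, 15 and 6 with promoters of 5 kb either side, and 17, 28 and 10 with the villi list reduced. No paired analysis was possible because each group has 1 library and no test was made. The depth limits what the lower scores can show, since a peak missing from the crypts list may lie just under its threshold.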

Other observations

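Values for further gene groups and for families taken by the stem of the symbol, some of whose members belong to lists above, follow beside 13% of all genes with a promoter peak in crypts and 16% in villi. Of 38 imprinted genes, which are expressed from the copy of 1 parent, 14 had a promoter H3K27me3 peak in both compartments, 2 in villi only and 22 in neither, a share of 36.8% in crypts and 42.1% in villi. Of 34 MHC genes 2 had one in both and 1 in villi only, 5.88% and 8.82%. Among the families, all 8 Lhx genes (LIM homeobox factors), 13 of 14 Nkx genes, 14 of 19 Adamts genes (secreted metalloproteases) and 11 of 14 Cacna genes (calcium channel subunits) had a peak in both. Apart from the keratins and olfactory receptors, families with 3 or more villi-only members included Lypd (3 of 9, Ly6-domain proteins), Chst (3 of 14, carbohydrate sulfotransferases), Dnah (3 of 15, dyneins of cilia) and Pde (5 of 26, phosphodiesterases), which were chosen after their values were seen and have no test.

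The window chr15:102500001-103000000, which holds the start of the HoxC cluster, had 24 villi-only peaks beside 14 shared and 2 crypts-only ones, and 0 of its 17 protein-coding genes held a villi-only peak. The window chr4:140500001-141000000, with the Padi genes of protein citrullination, had 24 villi-only, 8 shared and 1 crypts-only peaks.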
